A study of Mus musculus with 6 samples.

Results

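Glycolysis and pyruvate entry genes were examined by chromatin accessibility in the white blood cells of mice after high-altitude de-acclimatization (HADA). The set was 34 genes fixed by name. It runs from glucose uptake to lactate export and to the delivery of pyruvate into mitochondria, and all 34 symbols were found in the annotation. Accessible regions were assigned to a gene when the summit, the tallest base of the peak, lay in the gene body or within 3 kb of one of its annotated transcription starts. By this rule 95 of the 62876 regions found over all libraries belonged to 33 of the 34 genes. Pdk4 had no region in any library. The assay was ATAC-seq, in which the Tn5 transposase cuts and tags open DNA. It was made on peripheral blood leukocytes after red cell lysis in 3 control and 3 HADA libraries. The animals were young adult male C57BL/6j mice with no transgene or deletion named. HADA mice had lived for several weeks in a hypobaric hypoxia chamber that simulated high altitude and were then returned to normoxia. Controls stayed in normoxia. The day of blood collection for ATAC-seq was not given in the sources used here. The labels do not say that each library was a separate animal, so p-values measure the spread between these libraries, which may be technical. The cells were not sorted. In such a mixture, fewer cells of a type and less accessibility per cell cannot be told apart.

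Glycolysis splits glucose into pyruvate in the cytosol and yields ATP without oxygen. When oxygen is low, the factor HIF-1 is stabilized and binds a short core sequence near many glycolytic genes, including those for glucose transporter GLUT1, hexokinase 2, lactate dehydrogenase A, the lactate exporter MCT4 and pyruvate dehydrogenase kinase 1. Pyruvate is either reduced to lactate or carried into mitochondria and oxidized by the pyruvate dehydrogenase complex, which the PDK kinases switch off. Myeloid cells and activated lymphocytes are known for strong use of glycolysis, and several steps are served by isoforms from different genes.

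On the main chromosomes there were 41475, 41214 and 34045 peaks in the 3 controls, and HADA libraries had 44401, 44044 and 45799. Heights were compared as relative height, the summit pileup (the number of overlapping fragments or reads at the summit) divided by the library's median over the 23970 regions with a peak in all 6 libraries. That median ranged from 49 to 58 over the controls and from 77 to 92 over the HADA libraries. It rose more than the genome-wide background pileup did, by 0.38 on the log2 scale between the group means, and dividing by the background adds this shift to every difference. Control 3 stood apart from the other controls. Its summed relative height over 8 B cell marker promoters was 1.33, against 6.31 and 4.86 in the other controls and 13.6, 14.4 and 13.7 in HADA. Over 8 neutrophil marker promoters it was 16.2, against 7.86 and 6.36 in the other controls and 3.44, 2.94 and 2.09 in HADA. Monocyte markers summed to 6.59, 6.67 and 8.06 in control and 3.91, 3.74 and 3.40 in HADA, while T cell markers overlapped between groups at 9.50, 9.58 and 12.6 against 11.0, 10.6 and 10.2. Among marker promoters with peaks in all libraries, 5 of 5 for B cells were higher, 3 of 4 for neutrophils and 4 of 4 for monocytes were lower, and of 5 for T cells 2 were higher (Cd3e and Lck) and 1 lower (Cd6), where 20.1% of all shared promoter regions were higher and 12.2% lower. The monocyte list was not of 1 direction, since Ly6c2, which was not tested, had relative heights of 0.690 and 0.545 in control 1 and control 2, no peak in control 3, and 1.07, 1.05 and 0.938 in HADA. Ccr2, also a monocyte marker, had a peak in 1 control and 3 HADA libraries. The neutrophil gene Camp had no promoter peak in any library. NK cell markers summed to 0.429 to 1.16 in control and 1.07 to 1.79 in HADA. Erythroid and platelet markers summed to 2.86 to 2.93 and 4.57 to 5.35, with no promoter peak at Hba-a1 or Ppbp. These marker values moved with the groups, and their part in the differences given for the glycolytic genes was not tested.

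**Figure D1:**
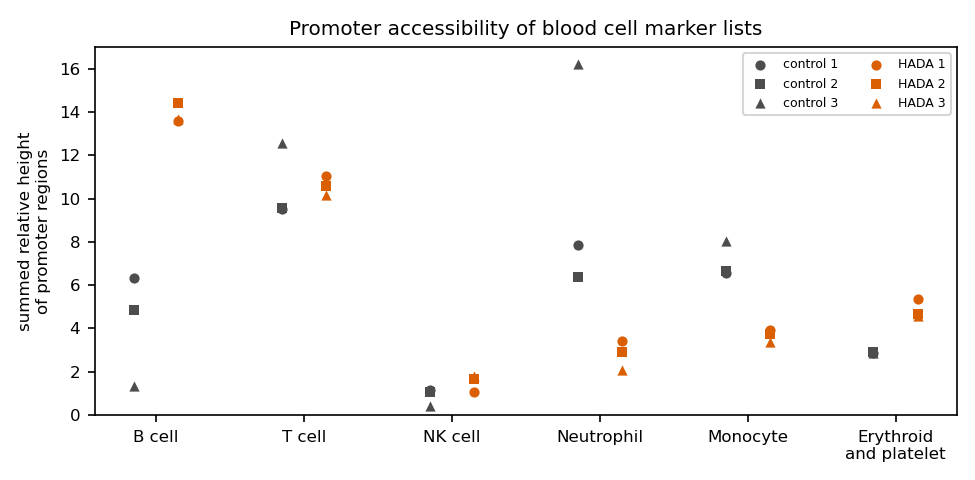
Summed relative height of the promoter regions of 6 blood cell marker lists (vertical axis, no unit) in each library, grey for control and orange for HADA, with the replicate number as the marker shape. B cell sums were 13.6 to 14.4 in HADA and 1.33 to 6.31 in control, and neutrophil sums were 2.09 to 3.44 in HADA and 6.36 to 16.2 in control.

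Sequence was taken from the GRCm39 genome at the sites on which the comparisons turn. The first set shows 5 promoters, each as 250 bases that precede an annotated start within the promoter peak, on the gene's strand. For Ldha, which has other annotated starts farther upstream, the stretch lies inside the gene. The 5 were chosen because these stretches hold the letters marked, and among the other called promoters Slc16a3, Pdk1 and Pdk3 held them nowhere in the 250 bases before the main start. Ldha is a classical HIF-1 target, Pfkp, Slc16a1 and Pdk2 had promoters that were higher in HADA, and Hk2 had a promoter that was lower. Capitals mark the letters ACGTG, the core of a HIF-1 site, on either strand, and CACGTG reads as this core on both strands at once. These stretches are chr7:46494882-46495131 (Ldha, plus strand), chr13:6698971-6699220 (Pfkp, minus), chr3:104545561-104545810 (Slc16a1, plus), chr11:94932243-94932492 (Pdk2, minus) and chr6:82751470-82751719 (Hk2, minus).
Ldha: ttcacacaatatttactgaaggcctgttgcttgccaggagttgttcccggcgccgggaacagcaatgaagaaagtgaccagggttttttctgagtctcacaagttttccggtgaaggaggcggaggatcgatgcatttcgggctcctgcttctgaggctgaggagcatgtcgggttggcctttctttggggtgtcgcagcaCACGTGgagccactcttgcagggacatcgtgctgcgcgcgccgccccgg
Pfkp: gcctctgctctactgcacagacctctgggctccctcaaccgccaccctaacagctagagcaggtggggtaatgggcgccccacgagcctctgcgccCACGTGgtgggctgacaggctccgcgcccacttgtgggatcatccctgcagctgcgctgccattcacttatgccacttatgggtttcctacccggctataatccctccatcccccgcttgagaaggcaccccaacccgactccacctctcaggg
Slc16a1: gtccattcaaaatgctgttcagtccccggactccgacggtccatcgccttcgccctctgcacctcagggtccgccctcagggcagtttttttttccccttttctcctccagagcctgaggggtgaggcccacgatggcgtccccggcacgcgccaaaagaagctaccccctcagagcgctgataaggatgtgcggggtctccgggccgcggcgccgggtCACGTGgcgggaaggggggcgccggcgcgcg
Pdk2: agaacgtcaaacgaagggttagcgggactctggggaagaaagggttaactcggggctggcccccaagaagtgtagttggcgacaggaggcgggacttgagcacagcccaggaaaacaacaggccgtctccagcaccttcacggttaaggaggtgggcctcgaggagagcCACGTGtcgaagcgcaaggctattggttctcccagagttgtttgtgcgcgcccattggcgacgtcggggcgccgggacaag
Hk2: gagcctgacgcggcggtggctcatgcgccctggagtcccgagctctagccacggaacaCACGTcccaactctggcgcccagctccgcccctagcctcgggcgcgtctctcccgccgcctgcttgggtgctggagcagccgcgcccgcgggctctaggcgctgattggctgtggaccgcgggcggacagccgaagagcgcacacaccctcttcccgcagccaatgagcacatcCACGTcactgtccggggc

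The second set shows the 200 bases around the summit of the 4 regions with peaks in all libraries of 1 group and no peak in the other, on the plus strand. Those of Slc2a1 (chr4:118988677-118988876) and of the 3′ part of Pfkfb3 (chr2:11493890-11494089) had peaks in HADA. Those of Pkm (chr9:59566949-59567148) and of the middle of Pfkfb3 (chr2:11534920-11535119) had peaks in control. Capitals again mark ACGTG on either strand, which was found in the Pkm stretch.
Slc2a1 intron: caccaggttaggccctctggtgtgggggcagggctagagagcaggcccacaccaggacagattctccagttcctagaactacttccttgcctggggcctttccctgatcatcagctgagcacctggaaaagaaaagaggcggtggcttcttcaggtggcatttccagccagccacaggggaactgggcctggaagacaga
Pfkfb3 intron, HADA: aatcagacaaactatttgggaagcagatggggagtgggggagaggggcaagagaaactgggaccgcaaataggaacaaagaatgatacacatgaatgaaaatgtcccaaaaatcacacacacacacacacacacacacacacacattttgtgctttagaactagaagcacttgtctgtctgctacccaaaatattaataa
Pkm intron: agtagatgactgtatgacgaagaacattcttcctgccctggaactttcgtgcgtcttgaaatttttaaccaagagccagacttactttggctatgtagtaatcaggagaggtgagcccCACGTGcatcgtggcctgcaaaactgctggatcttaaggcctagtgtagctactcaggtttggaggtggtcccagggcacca
Pfkfb3 intron, control: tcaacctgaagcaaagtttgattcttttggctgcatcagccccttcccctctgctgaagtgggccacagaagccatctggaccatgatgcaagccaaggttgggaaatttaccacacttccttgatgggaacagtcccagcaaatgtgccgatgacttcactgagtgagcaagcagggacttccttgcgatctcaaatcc

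Nearly all of these genes had an open promoter in blood leukocytes. For 32 of the 34 genes (all but Pdk4 and Eno2) a peak lay within 3 kb of a start in every library, compared with 53.5% of 21757 protein-coding genes. Hk3 was among the 32 through an intronic region 2712 bp from its start and 19 bp from a start of Gm59993, and within 1 kb of a start the number was 31. For each gene the promoter region was the tallest region with a summit within 3 kb of a start. All 33 such summits lay within 200 bp of a start of their own gene, at a median distance of 31 bp, and the 50 bases at each were found once in the genome. The 31 promoter regions with peaks in all 6 libraries had a median relative height of 2.81, against 1.51 over all 14962 shared promoter regions, and 16 lay among the tallest 3741 of these, at a relative height of at least 2.80. The tallest was that of Mpc2, a subunit of the mitochondrial pyruvate carrier, with pileups of 671, 623 and 1008 in control and 970, 654 and 665 in HADA. The lowest shared one was that of Ldhb, the heart-type lactate dehydrogenase subunit, with pileups of 18, 16 and 17 in control and 29, 29 and 24 in HADA. Pfkfb3 had 12 regions, Slc2a3 had 9, and Slc2a1, Hk1 and Pfkfb4 had 6 each, while 12 genes had 1. Of the 95 regions, 54 had a peak in all 6 libraries and 11 in a single library. The number of peaks in the set per library was 74, 73 and 79 in control and 78, 74 and 76 in HADA, so the groups overlapped in raw counts. The peak lists differed in length, however. As a share of each library's peaks on the main chromosomes, every HADA library lay below every control. Control 1, control 2 and HADA 1 lay close together, and control 3, with the fewest peaks, had the highest share. This difference in share was not tested.

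**Figure D2:**
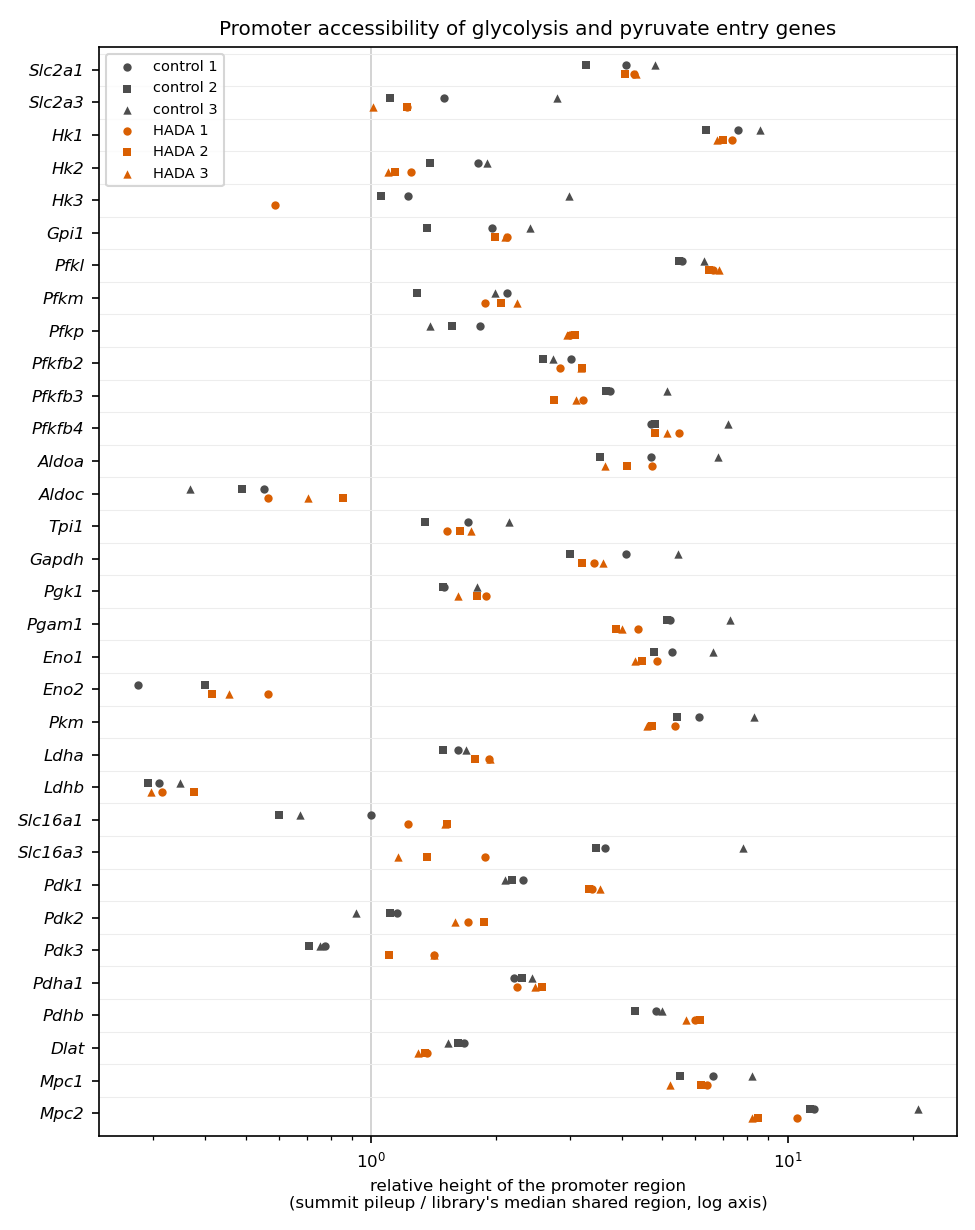
Relative height (horizontal log axis, summit pileup over the library's median shared region) of the promoter region of each gene in pathway order, grey for control and orange for HADA, with the replicate number as the marker shape; a library with no peak has no marker. Among the called promoters, Pfkp, Slc16a1, Pdk1, Pdk2 and Pdk3 lay higher in all 3 HADA libraries, and Slc16a3 and Hk2 lay lower. Called or not, the groups did not overlap at 16 of the 31 promoter regions with peaks in all libraries.

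The groups were compared by limma on log2 relative height over all 23970 shared regions, with Benjamini-Hochberg adjustment over all of them and a threshold of 0.05. Of the 31 promoter regions of the set that could be tested, 5 were higher in HADA (16.1%), 2 were lower (6.45%) and 24 were not called. Over all shared promoter regions, 20.1% were higher and 12.2% were lower, so the shares in the set were close to or below the background. The median difference was 0.056 (log2) over the 31 promoter regions and 0.093 over all shared promoter regions. Over all 54 shared regions of the set, promoters included, 5 were higher (9.26%) and 8 were lower (14.8%), against 17.9% and 24.1% of all shared regions. The balance of higher to lower promoters moved with the scaling. With pileups divided by the library background, 7 promoters of the set were higher and 1 lower, against 35.8% and 7.8% of all shared promoter regions. With the authors' fold enrichment ranked within each library, 4 were higher and 0 lower by limma (3 lower at an unadjusted p under 0.05), against 6.92% and 2.25%. The ranks were turned into normal scores, so all differences given with the fold ranked are in these rank units and not log2. Of the 13 called regions of the set, 1 (the Pfkp promoter) kept its call with the fold ranked. With the fold ranked the sign of the difference changed at 10 of the 31 promoters and 3 gained a call. With pileups over background, which adds the same 0.38 to every difference, 8 promoters with differences between −0.38 and 0 became positive and 2 gained a call. With quantile-normalised pileups, chosen after values had been seen, 7 were higher and 2 lower, against 24.7% and 10.6%.

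**Figure D3:**
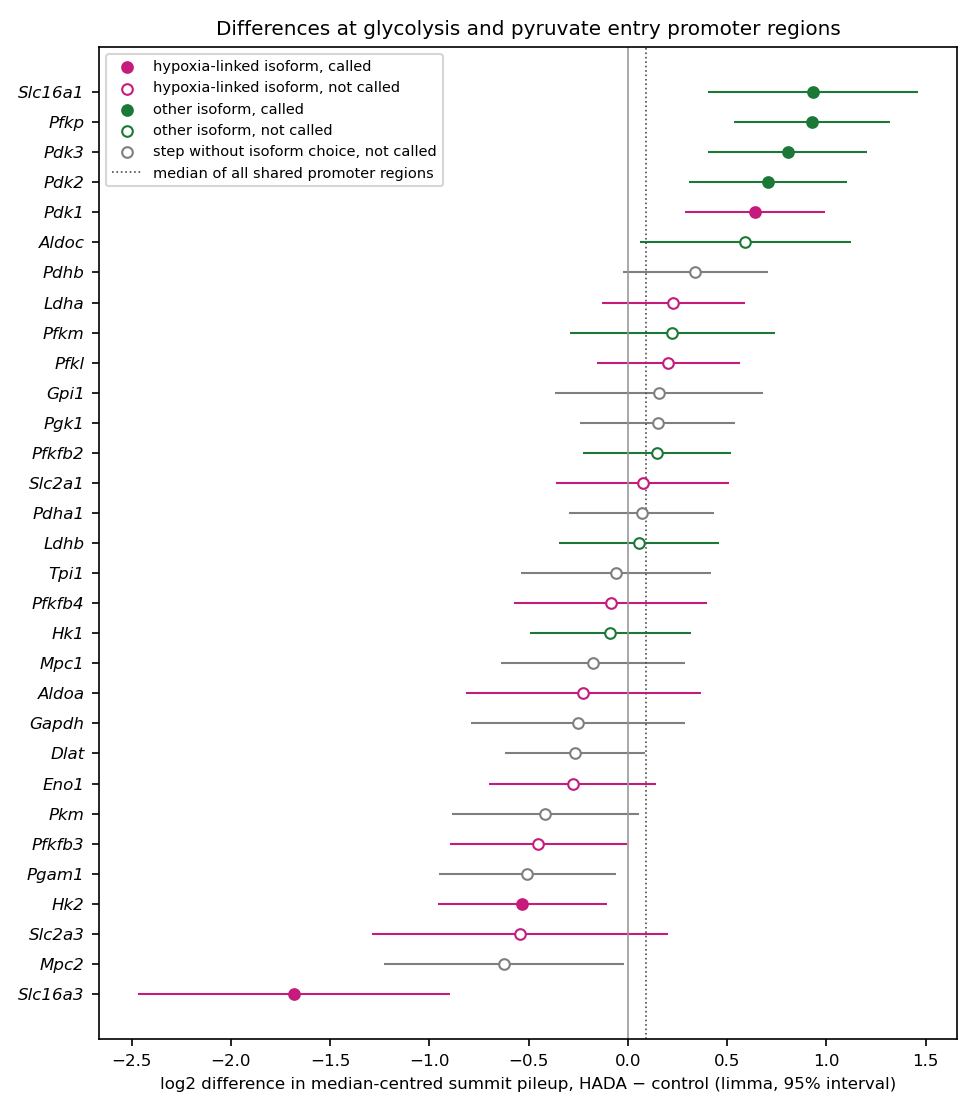
Difference in log2 relative height, HADA minus control (horizontal axis, limma estimate with its 95% interval), for the 31 promoter regions in all libraries, ordered by size, with filled points for adjusted p under 0.05 and colours for the isoform classes. The class labelled as without isoform choice holds the genes with no other isoform within the set. The dotted line is the median of all shared promoter regions, 0.093; estimates ran from −1.68 at Slc16a3, whose sign did not hold when the authors' fold was ranked, to 0.93 at Slc16a1 and Pfkp.

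Glucose enters through the transporters encoded by Slc2a1 (GLUT1) and Slc2a3 (GLUT3). The Slc2a1 promoter (chr4:118965635-118966704) had pileups of 238, 180 and 236 in control and 394, 313 and 351 in HADA. In relative height it was 4.06 ± 0.773 in control and 4.23 ± 0.143 in HADA (SD, n = 3 each). The difference was 0.07 on the log2 scale with a 95% interval of −0.36 to 0.51 (limma adjusted p = 0.771), and the groups overlapped. Slc2a3 had a pair of separate open starts. At the taller one, 35 bp from a start, the control pileups were 87, 61 and 137 and those of HADA 112, 94 and 82 (−0.54, limma adjusted p = 0.203). At the other, 113 bp from a start, the difference had the opposite sign (0.60, limma adjusted p = 0.0786), and the groups did not overlap in relative height. Neither passed the test. With pileups over background the second of them was called higher (0.98, limma adjusted p = 0.00417).

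Hexokinases trap glucose as glucose 6-phosphate. Hk1, the hexokinase of most cells, had a tall promoter that differed by −0.09 (limma adjusted p = 0.704). The promoter of Hk2, the inducible hexokinase (chr6:82750220-82752029), had pileups of 105, 76 and 93 in control and 115, 88 and 89 in HADA. The raw pileups thus overlapped, and the difference lay in the scaling to the shared regions, where all HADA libraries were below all controls. Relative height was 1.70 ± 0.276 in control and 1.16 ± 0.0778 in HADA (SD, n = 3 each), a difference of −0.53 (limma adjusted p = 0.0492). The call was lost with pileups over background (−0.15, limma adjusted p = 0.683) and when control 1, control 3, HADA 1, HADA 2 or HADA 3 was left out (limma adjusted p = 0.113, 0.067, 0.102, 0.154 and 0.173). An intronic region of Hk2, 8817 bp from its nearest Hk2 start and 111 bp from a start of Gm17034, showed a larger difference. It had pileups of 100, 76 and 196 in control and 82, 58 and 49 in HADA, with control 3 highest (−1.52, limma adjusted p = 0.0187). Without control 3 the difference was −1.11 (limma adjusted p = 0.0119), and its call was lost without HADA 2 or HADA 3 (limma adjusted p = 0.0613 and 0.0606). Hk3, a hexokinase abundant in myeloid cells, had start-site pileups of 71, 58 and 146 in control and 54 in HADA 1, with no peak in HADA 2 or HADA 3. It could not be tested in the shared regions, and its highest value was again in control 3, the library with the highest neutrophil marker sum.

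Phosphofructokinase commits sugar to glycolysis and is built from liver-type (Pfkl), muscle-type (Pfkm) and platelet-type (Pfkp) subunits. The Pfkp promoter (chr13:6696965-6699268) had pileups of 106, 86 and 68 in control and 276, 238 and 239 in HADA. Relative height was 1.59 ± 0.221 in control and 3.01 ± 0.0712 in HADA (SD, n = 3 each), and the groups were well apart. The difference was 0.93 with a 95% interval of 0.53 to 1.32 (limma adjusted p = 0.0101). Among the 13 called regions of the set, it was the one whose call held in all 15 alternative fits. Pfkl differed by 0.20 (limma adjusted p = 0.317) and Pfkm by 0.22 (limma adjusted p = 0.444), and the Pfkm region also held a start of Senp1. Gpi1, which feeds this step with fructose 6-phosphate, had a promoter difference of 0.16 (limma adjusted p = 0.604). A Gpi1 intronic region 1351 bp from a start was lower, with pileups of 53, 46 and 98 in control and 37, 22 and 29 in HADA (−1.74, limma adjusted p = 0.0109).

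The PFKFB enzymes set the level of fructose 2,6-bisphosphate, the strongest activator of phosphofructokinase. Their main promoters did not pass the test: Pfkfb2 differed by 0.15, Pfkfb3 by −0.45 (limma adjusted p = 0.0918) and Pfkfb4 by −0.09 (limma adjusted p = 0.756). With the fold ranked, the Pfkfb4 promoter was higher instead (0.58, limma adjusted p = 0.0436). Pfkfb3 had a second open start, 58 bp from an annotated start, with pileups of 190, 141 and 160 in control and 353, 254 and 284 in HADA. Its difference had the opposite sign to that of the main promoter (0.23, limma adjusted p = 0.314), and it was the taller of the pair in HADA, at a relative height of 3.55 against 3.03. A pair of smaller Pfkfb4 regions was lower in HADA. The one 201 bp from an annotated start had pileups of 35, 26 and 44 in control and 32, 17 and 20 in HADA (−1.25, limma adjusted p = 0.0139). The one 1228 bp from a start had pileups of 27, 23 and 37 in control and 25, 13 and 17 in HADA (−1.31, limma adjusted p = 0.0125). The raw values overlapped between groups at both, and the relative heights did not. Both calls were lost with quantile-normalised pileups (limma adjusted p = 0.0637 and 0.0767) and without HADA 2 (limma adjusted p = 0.0597 and 0.0534).

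The steps from the aldolases to pyruvate kinase showed no called promoter. Aldoa, the main aldolase of blood cells, differed by −0.22, and Aldoc, the brain-type aldolase with a promoter far lower in every library, by 0.59 (limma adjusted p = 0.0694; 0.00455 with pileups over background, where it was called higher). Tpi1 differed by −0.06, Gapdh by −0.25, Pgam1 by −0.51 (limma adjusted p = 0.0653), Eno1 by −0.28 and Pkm by −0.42. With the fold ranked the signs of Tpi1, Gapdh, Pgam1 and Pkm were positive, and those of Aldoa and Eno1 stayed negative. Pgk1, which carries out the first ATP-forming step, had pileups of 87, 82 and 88 in control and 174, 138 and 131 in HADA. In relative height this was 1.60 ± 0.174 and 1.77 ± 0.139 (SD, n = 3 each), a difference of 0.15 with a 95% interval of −0.24 to 0.54 (limma adjusted p = 0.497), and the groups overlapped. With the authors' fold ranked within each library, Pgk1 was higher (limma adjusted p = 0.046). Eno2, the neuron-type enolase, had a small promoter peak of 16 and 22 in control 1 and control 2, none in control 3, and 52, 32 and 37 in HADA, so it was not tested.

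Lactate is made by dehydrogenases and moved by monocarboxylate transporters. The Ldha promoter (chr7:46494734-46496665) had pileups of 94, 82 and 83 in control and 177, 137 and 156 in HADA. Relative height was 1.60 ± 0.103 in control and 1.88 ± 0.0841 in HADA (SD, n = 3 each). The groups did not overlap, but the difference of 0.23 (95% interval −0.13 to 0.59) did not pass the test (limma adjusted p = 0.262). A region 2592 bp from a start of Ldha and 108 bp from a start of Gm73185 was lower, with pileups of 40, 35 and 43 in control and 37, 32 and 25 in HADA (−0.97, limma adjusted p = 0.0124). With pileups over background that call was lost (limma adjusted p = 0.09), and with the fold ranked its sign was positive. Ldhb differed by 0.06 (limma adjusted p = 0.813) and was called higher with the fold ranked (0.75, limma adjusted p = 0.046).

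The lactate transporter promoters moved in opposite directions. Slc16a1 encodes MCT1, which carries lactate in either direction. Its promoter (chr3:104545176-104546986) had pileups of 58, 33 and 33 in control and 113, 117 and 122 in HADA. Relative height was 0.758 ± 0.213 in control and 1.42 ± 0.164 in HADA (SD, n = 3 each), a difference of 0.93 with a 95% interval of 0.40 to 1.46 (limma adjusted p = 0.0175). The call was lost without HADA 2 or HADA 3 (limma adjusted p = 0.0679 and 0.0563). Slc16a3 encodes MCT4, the exporter of highly glycolytic cells. Its promoter (chr11:120839043-120840325) had pileups of 211, 191 and 382 in control and 173, 105 and 94 in HADA. All HADA libraries were below all controls, and control 3 was highest. Relative height was 4.97 ± 2.45 in control and 1.47 ± 0.371 in HADA (SD, n = 3 each), a difference of −1.68 with a 95% interval of −2.47 to −0.90 (limma adjusted p = 0.0116), and its sign did not hold when the authors' fold was ranked (0.02, limma adjusted p = 0.952). Without control 3 the difference was −1.36 (limma adjusted p = 0.00877). A second Slc16a3 region, 127 bp from another start, had pileups of 125, 111 and 235 in control and 75, 59 and 60 in HADA (−1.83, limma adjusted p = 0.00973). The neutrophil and monocyte marker sums were lower in HADA in the same libraries, and their part in this difference was not tested.

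The pyruvate dehydrogenase kinases phosphorylate and switch off the pyruvate dehydrogenase complex, and all 3 with a promoter region were higher in HADA, as were 20.1% of all shared promoter regions. Pdk1 (chr2:71703100-71704434), a HIF-1 target, had pileups of 134, 120 and 103 in control and 312, 257 and 287 in HADA, a difference of 0.64 (limma adjusted p = 0.0163). Pdk2 (chr11:94931590-94933209) had pileups of 67, 61 and 45 in control and 157, 144 and 129 in HADA, a difference of 0.70 (limma adjusted p = 0.0175). Pdk3 (chrX:92875003-92876214) had pileups of 45, 39 and 37 in control and 130, 85 and 115 in HADA, a difference of 0.80 (limma adjusted p = 0.013). At each of them every HADA library was above every control in relative height, and the groups were apart, in either direction, at 16 of the 31 tested promoter regions. Pileups were apart too, but the pileup of the median shared region was itself 77 to 92 in HADA and 49 to 58 in control. With the fold ranked, the differences at Pdk1, Pdk2 and Pdk3 kept their sign and none passed the test (limma adjusted p = 0.203, 0.48 and 0.087). Leaving out HADA 1 raised all 3 above the threshold (limma adjusted p = 0.0596, 0.0591 and 0.0514). Leaving out HADA 2 did so for Pdk1 and Pdk2 (limma adjusted p = 0.0635 and 0.0777), and leaving out HADA 3 for Pdk1 (limma adjusted p = 0.0614). Pdk4, the kinase induced by fasting, had no peak. The genes of the complex itself were not called: Pdha1 (E1 alpha) differed by 0.07, Pdhb (E1 beta) by 0.34 (limma adjusted p = 0.115; 0.0369 with pileups over background) and Dlat (E2) by −0.27 (limma adjusted p = 0.186). The pyruvate carrier promoters were not called either, at −0.18 for Mpc1 and −0.62 for Mpc2 (limma adjusted p = 0.0873).

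Where a step has several isoforms, the 11 genes linked to hypoxia in textbooks as HIF-1 targets (Slc2a1, Slc2a3, Hk2, Pfkl, Pfkfb3, Pfkfb4, Aldoa, Eno1, Ldha, Pdk1 and Slc16a3) were set against the 12 other isoforms. All 11 hypoxia-linked promoters were tested, with 1 higher (Pdk1) and 2 lower (Hk2 and Slc16a3) and a median difference of −0.22, with each gene read at its tallest start. Of the other isoforms 9 were tested, with 4 higher (Pfkp, Slc16a1, Pdk2 and Pdk3), 0 lower by limma (0 also at an unadjusted p under 0.05) and a median difference of 0.59. Not tested were Hk3, with a start-site peak in 3 control and 1 HADA library, Eno2, with one in 2 control and 3 HADA libraries, and Pdk4, with no peak. The count of lower promoters and the median thus leave out Hk3, whose peaks lay mainly in control. Of all shared promoter regions 20.1% were higher and 12.2% lower, which stands beside 1 and 2 of 11 and 4 and 0 of 9. These counts moved with the scaling. With the fold ranked they were 1 higher and 0 lower in the hypoxia-linked class and 2 and 0 among the other isoforms, with pileups over background 1 and 1 against 5 and 0, and with quantile-normalised pileups 1 and 2 against 5 and 0. With 4 more genes (Pfkp, Aldoc, Eno2 and Pdk3) placed in the hypoxia-linked class they were 3 higher and 2 lower of 14 against 2 and 0 of 6. The remaining 11 genes had no other isoform within the set, though some have paralogs known from other tissues, such as Pgk2 and Pklr. These 11 genes had 0 calls in either direction by limma and a median of −0.18. At an unadjusted p under 0.05, 2 were lower and 0 higher. With each of the other 3 scalings 1 of these was called higher. The hypoxia-linked promoters were the taller ones, with a median relative height of 4.19 in control and 3.42 in HADA, against 1.06 and 1.72 for the other isoforms. Height itself moved with the difference: the 3741 tallest shared promoter regions had a median difference of −0.108. The medians of the classes differed by −0.816. Genes are not replicates, so this is a description. Without control 3 it was −0.448 and with the wider class −0.192. With the fold ranked it was −0.31, in rank units that cannot be set against the log2 values.

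Beside the main promoter regions, 23 regions of the set had peaks in all libraries, of which 6 were lower and 0 were higher in HADA by limma, with 3 higher at an unadjusted p under 0.05. Of the 23, 17 had a summit within 3 kb of a start of some gene and held all 6 lower ones, against 12.2% lower among all shared promoter regions. The other 6 lay farther from any start and 0 of them were called by limma (2 at an unadjusted p under 0.05, and 1 called with quantile-normalised pileups), whereas 14.2% of all shared regions outside promoters were higher and 43.8% lower. The 6 lower regions were those of Hk2, Gpi1, Pfkfb4, Ldha and Slc16a3 given with each gene. With pileups over background 4 of the 23 were higher and 5 lower, and with the fold ranked 1 was higher and 0 lower (1 at an unadjusted p under 0.05), so this balance also depended on the scaling. Without control 3, 12 of the 13 called regions of the set kept call and direction, the exception being the Hk2 promoter. Without control 1 or control 2 the number kept was 12 and 13, and without HADA 1, HADA 2 or HADA 3 it was 9, 6 and 9.

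Regions called in all 3 libraries of a single group and absent from the other lists numbered 2 for HADA and 2 for control, or 2.11% of the 95 regions each, against 7.01% and 1.88% of all regions. The HADA-only region of Slc2a1 (chr4:118988475-118988981) lay in an intron, 22666 bp from the nearest Slc2a1 start and 579 bp from a start of Gm12867. Its pileups were 117, 94 and 92 in HADA. The same relative height in the control libraries would have given pileups of 59.3 to 70.2, where 29 to 32 were needed for a call. The HADA-only region of Pfkfb3 (chr2:11493504-11494329) was small, with pileups of 28, 20 and 33. The control-only region of Pkm (chr9:59566781-59567198) lay 417 bp from an annotated internal start, with pileups of 100, 82 and 149, and the same height would have been called in all HADA libraries, where 84 to 97 was needed and 161 to 192 would have been reached. The control-only region of Pfkfb3 (chr2:11534726-11535425) had pileups of 22, 19 and 33, highest in control 3, and lay 23713 bp from a Pfkfb3 start. All 4 would have been tall enough for a call in the other group at equal relative height.

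**Figure D4:**
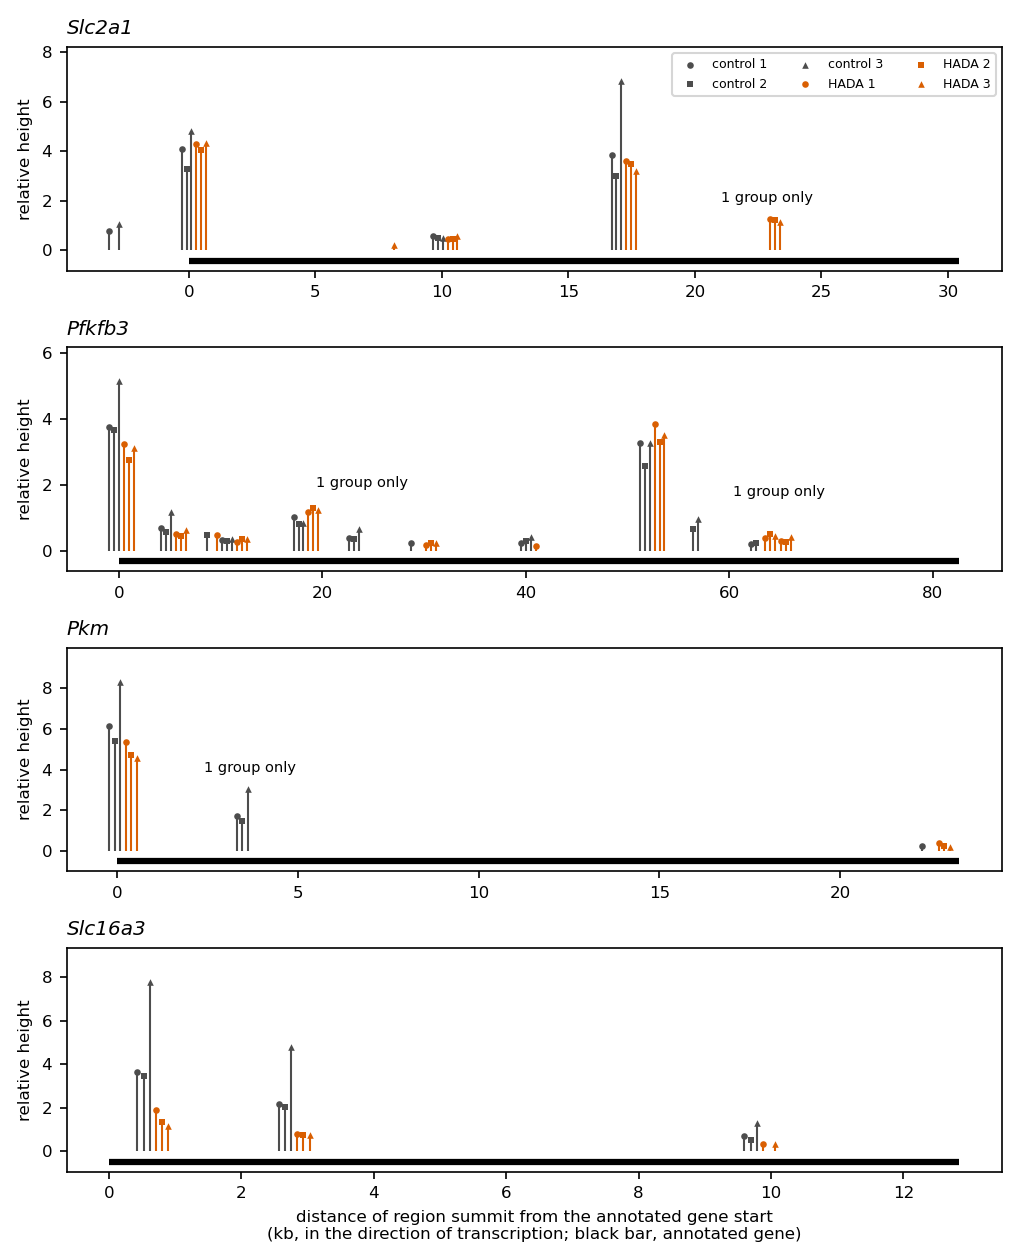
Relative height (vertical axis, no unit) of each region of Slc2a1, Pfkfb3, Pkm and Slc16a3 in each library against the distance of its summit from the annotated gene start (kb, in the direction of transcription), with the black bar as the gene and the 6 libraries drawn side by side at each region. The Slc2a1 intronic region had peaks in HADA alone and the Pkm intronic region in control alone, and the 2 tallest regions of Slc16a3 were lower in HADA in relative height, though not called in ranked fold.

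The HIF core ACGTG, searched on both strands within 100 bp of the summit, was found in 13 of 33 promoter regions of the set (39.4%) and in 16.8% of the 14962 shared promoter regions. These windows were richer in G and C than the rest, with a median of 65.2% and 17 CpG pairs against 61.2% and 13. The letters were in 4 of 11 hypoxia-linked and 5 of 11 other promoter regions, and in 4 of 11 of genes with no other isoform within the set. They were in 3 of the 5 promoters that were higher (Slc16a1, Pdk1 and Pdk3) and 1 of the 2 that were lower (Hk2). In the 250 bases before the main start, 12 of the 34 genes held them (35.3%), against 17.0% of protein-coding genes. Over all shared promoter regions the 2509 with the letters had a median difference of 0.135, and 20.6% were higher and 8.81% lower. Those without them had a median of 0.085, with 20% higher and 12.9% lower. The letters of an NRF2 site, TGACNNNGC on both strands, were in 3 of 33 promoter regions of the set (9.09%) and in 9.81% of all shared promoter regions. A match of letters is a description and not a bound site, and CACGTG is also the E-box read by MYC.

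Genes around the pathway were read in the same way. Of 24 related genes, which branch from glycolysis, run the tricarboxylic acid cycle or regulate the pathway, all had a promoter peak in every library. Of these, 2 were higher, a share below that 20.1%, and the median difference was 0.15. Tigar, which lowers fructose 2,6-bisphosphate, was higher by 1.05 (limma adjusted p = 0.0141), and Myc, a transcription factor that drives glycolytic genes, by 0.83 (limma adjusted p = 0.0228). Hif1a, the oxygen-regulated HIF-1 subunit, differed by 0.30 (limma adjusted p = 0.144). Of 16 paralogs known from other tissues, 10 had a promoter region and 5 had one in all libraries. Of these 5, 3 were higher, where 20.1% of all shared promoter regions were: Pfkfb1, the liver and muscle PFKFB enzyme, by 1.05 (limma adjusted p = 0.0112), Slc2a4, the insulin-regulated glucose transporter, by 0.78 (limma adjusted p = 0.0329), and Slc16a7, the transporter MCT2, by 0.65 (limma adjusted p = 0.0266). No peak was called at the starts of Pgk2, Pklr, Pdha2, Slc2a2 or Slc16a8.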

How the data were processed

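ATAC-seq peak lists of 3 control and 3 HADA libraries were used, grouped by the labels. Per the study's methods, the authors' steps were Trimmomatic trimming, Bowtie2 alignment to GRCm39, Picard deduplication and MACS2 peak calling, separately per library as the peak names show. Versions, MACS2 options and any Tn5 shift were not given in the sources used here, so summits may lie a few bases from the cut sites. Each deposited peak has a fold enrichment over local background, a score, a summit offset and −log10 values of p and q. From the deposited fold, (pileup + 1) / (background + 1), and the Poisson p, pileup and background were solved for 100% of peaks. Total reads were not analysed here, so the pileup stands for depth. Annotation was GENCODE for GRCm39, and the lists' sequence names and lengths matched that build. Peaks that shared 1 bp were merged. Log2 pileups, centred on the library's median shared region, were compared with limma 3.58.1 (R 4.3.3), Benjamini-Hochberg adjusted at 0.05 over 23970 regions, with a script tested on simulated data. Python 3.11.15 was used elsewhere. Full values were given for genes with a called promoter region, for regions found in 1 group only and for Slc2a1, Hk2, Pgk1, Ldha, Pdk1 and Slc16a3. Members, lists and isoform classes were chosen with earlier results of these data known. Alternatives were the ranked fold, pileup over background, a −log10 q of at least 5, equal numbers of strongest peaks, 100 bp of overlap, summits found once in the genome, a mean pileup of at least 20, a replicate block, each library left out, promoters within 1 kb, a wider hypoxia-linked class, all regions of a gene and quantile-normalised pileups. Some genes of the related and paralog lists are not reported here. The methods speak of leukocytes and the results text of mononuclear cells.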

Additional observations from a re-analysis of the deposited data

How the results depend on the processing

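The lists give no read totals, and small differences between 3 and 3 libraries may be missed. The smallest difference that could be detected was not measured. Limits of the main values were as follows. With the fold ranked, 0 regions of the set were lower by limma (4 at an unadjusted p under 0.05), and the class difference was −0.31 in rank units, not log2. Of the 13 called regions 1 kept its call (Pfkp), and 2 changed sign. With pileups over background 11 regions were higher and the median promoter difference was 0.434, against 0.471 over all shared promoter regions. With quantile-normalised pileups, added after values had been seen, 9 were higher and the median was 0.166, against 0.204. With a −log10 q of at least 5 there were 6 HADA-only regions. The class difference was −0.192 with the wider class and −0.447 with all shared regions of a gene. The cause of these moves was not tested. Leaving out 1 library gave 2 to 9 higher and 4 to 9 lower regions, a median of −0.0701 to 0.0787, 2 to 5 HADA-only and 2 to 6 control-only regions, and a class difference of −1.03 to −0.448. The count of higher regions was 9 without control 1, 2 without HADA 1, 2 without HADA 2 and 3 without HADA 3. The count of lower regions was 4 without HADA 2. HADA-only regions numbered 5 without control 1 and 4 without control 3, with fewer control libraries that had to lack a peak. Control-only regions numbered 6 without control 2 and 4 without HADA 1. The median was −0.0701 without control 2, and the class difference −0.448 without control 3. Among the 10 promoters of Slc2a1, Hk2, Pfkp, Pgk1, Ldha, Slc16a1, Slc16a3, Pdk1, Pdk2 and Pdk3, those whose sign changed were Slc16a3 with the fold ranked (0.0155), and Slc2a1, not called, with summits found once (−0.00452) and without control 2 (−0.0701, in a range of −0.0701 to 0.154 with 1 library left out). The rest of these 10 kept their sign, with 21 losses and 1 gain of a call over all alternatives. Over all 31 promoters, signs changed at 10 with the fold ranked and 3 with quantile-normalised pileups, and 3 and 2 gained a call.

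With the replicate block 4 regions were higher and 7 lower, and the Hk2 and Pdk1 promoters were lost (limma adjusted p = 0.104 and 0.0523). Libraries with the same number did not deviate together (correlations −0.0797, 0.0752 and −0.376). Libraries with different numbers had correlations from −0.474 to 0.488. With 3 libraries per group these few values cannot decide whether the numbers pair the libraries.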
